A study of Mus musculus with 15 samples.

Results

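Messenger RNA levels of 10 genes of bile acid synthesis, bile acid conjugation and their control by the farnesoid X receptor (FXR) were examined in mouse liver. The genes were taken from a list of names and matched to the Ensembl identifiers of the deposited table. All 10 were found among its 54281 identifiers, and all 10 lay among the 11568 genes that passed a filter on low values. The enzymes were Cyp7a1, Cyp8b1, Cyp27a1, Cyp7b1, Hsd3b7, Acox2, Slc27a5 and Baat, and the regulators were Nr0b2 and Nr1h4.

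The series profiled livers of 15 male C57BL6J mice aged 9.5 months by RNA sequencing, with 1 library per numbered animal. It asked how MCOPPB, which the series title calls a senolytic and which binds the opioid receptor for nociceptin/orphanin FQ, acts on liver with and without progressive fatty liver disease. DEN/HFD mice had received 25 mg/kg of the carcinogen diethylnitrosamine (DEN) at 2 weeks of age. They ate chow until 6 weeks of age and then, for 32 weeks, a lard-based high fat diet (HFD) with 60% of its energy from fat. Chow mice had received only the vehicle of DEN and stayed on chow, so effects of the carcinogen and of the diet cannot be told apart. MCOPPB was injected intraperitoneally at 5 mg/kg on 5 days followed by 2 days of washout, over 3 cycles and 21 days. Controls received saline injections. The groups were DEN/HFD MCOPPB (n = 3), DEN/HFD saline (n = 4), chow MCOPPB (n = 5) and chow saline (n = 3). Levels are given as normalized counts, obtained by inverting the variance-stabilised log2 values that the authors deposited, and differences are on the deposited log2 scale. In RNA of whole liver, fewer cells of a type and less RNA per cell cannot be told apart.

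Hepatocytes turn cholesterol into bile acids along a classic pathway that Cyp7a1 opens and an alternative pathway that Cyp27a1 and Cyp7b1 open. Cyp8b1 sets the share of cholic acid, Hsd3b7 modifies the sterol ring, Acox2 shortens the side chain in peroxisomes, and Slc27a5 and Baat attach taurine or glycine. Bile acids bind FXR, the nuclear receptor encoded by Nr1h4, which induces Nr0b2. The Nr0b2 product, SHP, is a corepressor that holds back Cyp7a1 and Cyp8b1, in concert with the gut hormone Fgf15 that the ileum releases. In mice, Cyp7a1 follows a daily rhythm that clock output factors such as Dbp drive, and Cyp7b1 is known as a male-biased gene of liver.

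Of the 10 genes, 6 had a promoter sequence in the RefSeq tables of the GRCm38.p6 build, covering 250 bases before to 50 after the transcription start. The promoters of Nr0b2 and Cyp8b1 are shown because these genes form the feedback step and its target, and because motifs of the factors named for this axis were found in them. Capitals mark matches to the motifs searched on both strands.
Nr0b2: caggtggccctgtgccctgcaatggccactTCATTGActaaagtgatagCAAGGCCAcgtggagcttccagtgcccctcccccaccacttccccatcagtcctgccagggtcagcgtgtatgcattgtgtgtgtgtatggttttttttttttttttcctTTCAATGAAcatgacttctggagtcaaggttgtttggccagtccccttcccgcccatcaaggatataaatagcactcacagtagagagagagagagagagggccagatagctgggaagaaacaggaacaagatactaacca
Cyp8b1: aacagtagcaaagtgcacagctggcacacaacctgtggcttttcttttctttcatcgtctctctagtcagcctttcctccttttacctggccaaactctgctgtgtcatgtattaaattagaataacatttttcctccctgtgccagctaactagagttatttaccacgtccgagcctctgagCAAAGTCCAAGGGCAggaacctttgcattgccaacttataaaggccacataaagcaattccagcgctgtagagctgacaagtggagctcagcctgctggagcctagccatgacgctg

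The Nr0b2 promoter is chr4:133553126-133553425 on the plus strand, and the Cyp8b1 promoter is chr9:121916256-121916555 on the minus strand. The 5 motifs searched were CAAGGNCA (the nuclear receptor LRH-1, encoded by Nr5a2), CAAAGNCCA (HNF4A), TCANTGA (the core of the inverted repeat bound by FXR), TTCNNNGAA (STAT5) and TTANGTAA (PAR bZIP factors such as Dbp). In Nr0b2, CAAGGNCA began at -201 from the start site and TCANTGA at -220 and -90, the last of these lying inside a TTCNNNGAA match at -91. In Cyp8b1, CAAAGNCCA at -67 overlapped CAAGGNCA at -60. Hsd3b7 held TCANTGA at -198 and TTCNNNGAA at -21, and Cyp27a1, Nr1h4 and Acox2 (2 windows) held none of the 5. The Nr1h4 window, chr10:89506609-89506908 on the minus strand, lay inside the gene, whose annotated start is at 89533585. Both Acox2 windows, chr14:8258970-8259269 and chr14:8258790-8259089 on the minus strand, also lay inside their gene, whose annotated start is at 8259353. The sequence at these annotated starts of Nr1h4 and Acox2 was not searched. Among 32851 promoters of the same length, the share with the motif was 6.71% for CAAGGNCA, 1.98% for CAAAGNCCA, 7.14% for TCANTGA, 8.30% for TTCNNNGAA and 2.32% for TTANGTAA. These matches describe letters in the window and not occupied sites.

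Estimated depth ran from 9.32 M to 18.7 M reads in a library, and 13863 to 16675 genes lay above the lowest value. All 6 hepatocyte markers, among them Alb and Ttr, were detected, and their summed level was 1786000 to 2969000 normalized counts in DEN/HFD MCOPPB, 2460000 to 3321000 in DEN/HFD saline, 1731000 to 3823000 in chow MCOPPB and 1641000 to 3422000 in chow saline livers. The library labelled DEN/HFD saline 4 stood apart from its group. In a principal component analysis its second component was -8.53, against 8.88 to 24.5 in the other 6 DEN/HFD libraries and -41.1 to 1.28 in chow libraries. Of 10 lipid droplet and fat uptake genes chosen after values were seen, 10 were lower in it than in the other DEN/HFD saline libraries. Cidec, a lipid droplet protein, was at 20.1 normalized counts in it and at 261 to 864 in the other 3. Of 18 male-biased liver genes, 12 were higher in it than in the other DEN/HFD saline libraries. Elovl3 was the 1 that was lower, at 183 normalized counts against 320 to 328. Hsd3b5, a male-biased steroid enzyme, was at 2054 normalized counts in it and at 27.9 to 66.3 in the other 3. Of the 10 bile acid genes, 8 lay above the other DEN/HFD saline libraries there, Cyp8b1 lay below them and Baat lay within their range. Results that rest on this library are given with and without it. Chow saline 2 also stood out, with the lowest second component (-41.1) and the fewest genes above the lowest value (13863). Its mean root-mean-square log2 distance to the other libraries of its group was 0.647, against 0.511 for DEN/HFD saline 4. Fits without chow saline 2 enter only the ranges over left-out libraries given below.

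Per kilobase of exon, Slc27a5 had the highest median level over the 15 libraries, at 2173 normalized counts per kb, and Cyp7a1 the lowest, at 89.9. Between them came Cyp27a1 at 988, Baat at 966, Hsd3b7 at 727, Cyp8b1 at 598, Nr1h4 at 507, Acox2 at 293, Cyp7b1 at 279 and Nr0b2 at 209 normalized counts per kb. Neighbours in this order were not separated by their spread, since the ranges over libraries of every neighbouring pair overlapped, except those of Slc27a5 (1705 to 3737 per kb) and Cyp27a1 (815 to 1404 per kb). The genes also differed in how much they varied. The highest library exceeded the lowest 19.8-fold for Cyp7a1, 7.65-fold for Cyp8b1 and 4.52-fold for Cyp7b1. For the remaining 7 genes the ratio was between 1.49 (Baat) and 3.19 (Hsd3b7). Cyp7a1 and Cyp8b1 thus spanned wider ranges than the conjugating enzymes and the FXR gene. The range of Cyp7b1 rested on the library labelled DEN/HFD saline 4, at 1909 normalized counts, with all other libraries at 422 to 1112.

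**Figure D1:**
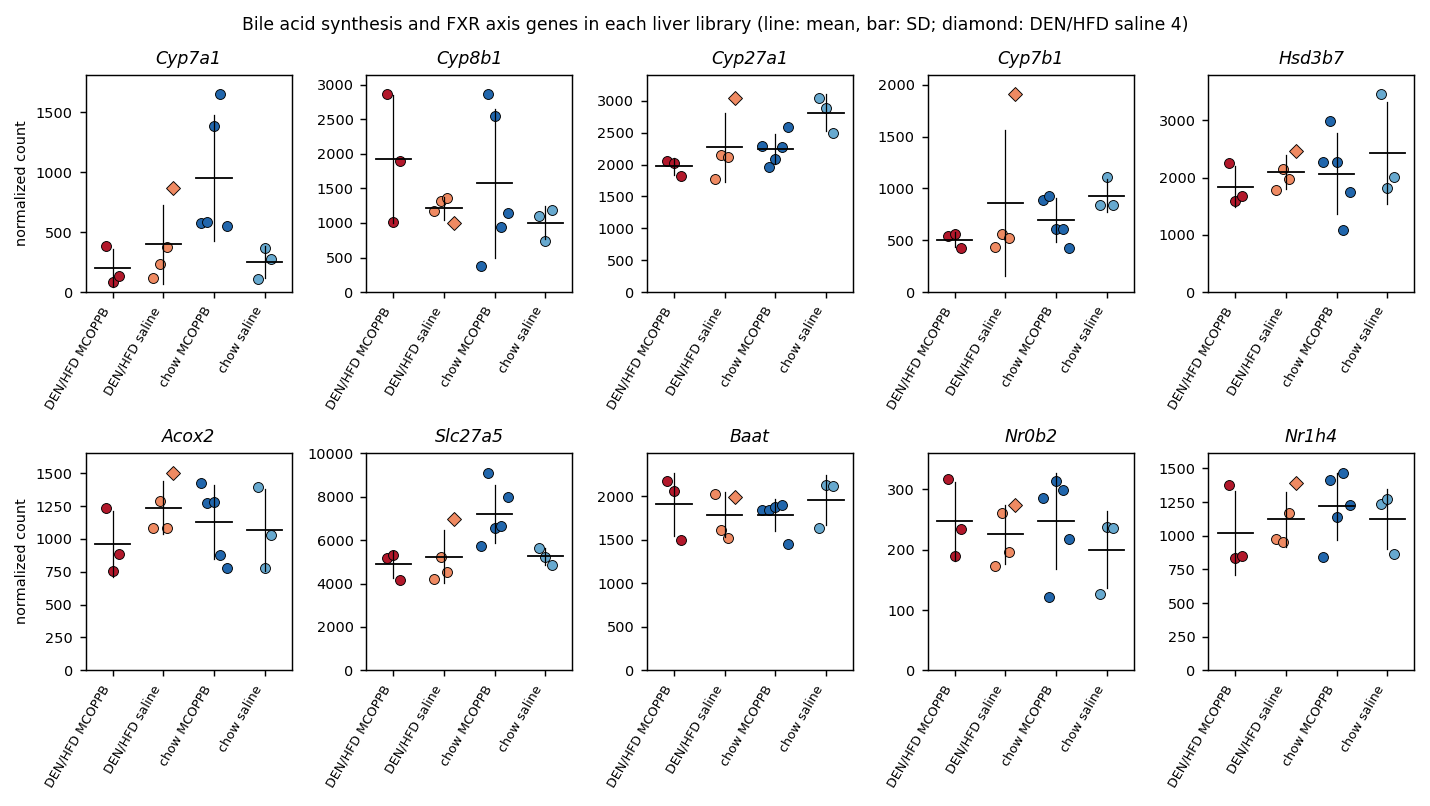
Normalized counts (vertical axes, starting at 0) of the 10 genes in each liver library, by group. Points are libraries, horizontal lines group means and vertical lines SD; the diamond is the library labelled DEN/HFD saline 4. Cyp7a1 was above 547 normalized counts in all 5 chow MCOPPB livers and below 382 in all 3 DEN/HFD MCOPPB and all 3 chow saline livers.

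Cyp7a1, the rate-limiting enzyme of the classic pathway (chr4:6265612-6275633, minus strand, ENSMUSG00000028240.2), had 382, 83.2 and 136 normalized counts in DEN/HFD MCOPPB livers and 114, 232, 375 and 869 in DEN/HFD saline livers. It had 576, 587, 1388, 1648 and 547 normalized counts in chow MCOPPB livers and 105, 366 and 272 in chow saline livers. Every chow MCOPPB liver lay above every chow saline and every DEN/HFD MCOPPB liver, and the only other library in that range was the one labelled DEN/HFD saline 4. The order of the group means was chow MCOPPB (949 ± 528, SD, n = 5), DEN/HFD saline (398 ± 332, n = 4), chow saline (248 ± 132, n = 3) and DEN/HFD MCOPPB (200 ± 159, n = 3), and the last 3 overlapped.

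Cyp8b1, the hydroxylase that makes cholic acid (chr9:121914356-121916305, minus strand, ENSMUSG00000050445.4), had 2861, 1009 and 1903 normalized counts in DEN/HFD MCOPPB livers and 1166, 1318, 1368 and 997 in DEN/HFD saline livers. It had 374, 2862, 2551, 945 and 1144 in chow MCOPPB livers and 1099, 733 and 1181 in chow saline livers. All 4 groups overlapped. The 4 libraries above 1903 or at it were all from MCOPPB mice, but so was the lowest of the 15, and the SD was 926 in DEN/HFD MCOPPB (n = 3) and 1077 in chow MCOPPB (n = 5), against 167 in DEN/HFD saline (n = 4) and 238 in chow saline (n = 3).

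Cyp27a1, the mitochondrial enzyme that starts the alternative pathway (chr1:74713574-74737892, plus strand, ENSMUSG00000026170.6), had 2063, 2032 and 1816 normalized counts in DEN/HFD MCOPPB livers and 1770, 2147, 2121 and 3045 in DEN/HFD saline livers. It had 2291, 1955, 2092, 2281 and 2586 in chow MCOPPB livers and 3052, 2894 and 2488 in chow saline livers. Chow saline held the highest mean (2811 ± 291, SD, n = 3), and it overlapped the chow MCOPPB and DEN/HFD saline groups by 1 library each.

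Cyp7b1, the next enzyme of that pathway (chr3:18071950-18243338, minus strand, ENSMUSG00000039519.6), had 538, 559 and 422 normalized counts in DEN/HFD MCOPPB livers and 437, 558, 524 and 1909 in DEN/HFD saline livers. It had 892, 929, 612, 604 and 426 in chow MCOPPB livers and 840, 1112 and 837 in chow saline livers. The value of 1909, in the library labelled DEN/HFD saline 4, was the highest of all 15. The other 3 DEN/HFD saline livers and all 3 DEN/HFD MCOPPB livers lay below every chow saline liver.

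Hsd3b7, which modifies the sterol ring in both pathways (chr7:127800604-127803802, plus strand, ENSMUSG00000042289.11), ranged from 1590 to 2257 normalized counts in DEN/HFD MCOPPB, 1789 to 2474 in DEN/HFD saline, 1085 to 2985 in chow MCOPPB and 1824 to 3457 in chow saline livers. Acox2, the peroxisomal oxidase of the side chain (chr14:8225511-8259353, minus strand, ENSMUSG00000021751.13), ranged from 758 to 1237, 1080 to 1504, 781 to 1423 and 777 to 1396 normalized counts in the same groups. For both genes all groups overlapped.

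Slc27a5, the ligase that activates bile acids with coenzyme A (chr7:12988346-12998192, minus strand, ENSMUSG00000030382.15), had 5190, 5297 and 4156 normalized counts in DEN/HFD MCOPPB livers and 4218, 5241, 4554 and 6963 in DEN/HFD saline livers. It had 5718, 9110, 6550, 6633 and 7975 in chow MCOPPB livers and 5651, 5238 and 4850 in chow saline livers. The chow MCOPPB livers lay above all chow saline and all DEN/HFD MCOPPB livers, with 5718 against 5651 as the narrowest gap. Baat, the transferase that joins bile acids to taurine or glycine (chr4:49489422-49506557, minus strand, ENSMUSG00000039653.9), ranged from 1493 to 2170, 1520 to 2027, 1454 to 1900 and 1630 to 2134 normalized counts in DEN/HFD MCOPPB, DEN/HFD saline, chow MCOPPB and chow saline livers, and all groups overlapped. It was the steadiest of the 10.

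Nr0b2, the corepressor SHP (chr4:133553376-133556536, plus strand, ENSMUSG00000037583.2), had 318, 190 and 234 normalized counts in DEN/HFD MCOPPB livers and 172, 260, 196 and 274 in DEN/HFD saline livers. It had 287, 121, 315, 299 and 218 in chow MCOPPB livers and 127, 238 and 236 in chow saline livers. Both the highest and the lowest values fell in MCOPPB livers, and all groups overlapped. Nr1h4, which encodes FXR (chr10:89454234-89533585, minus strand, ENSMUSG00000047638.15), ranged from 836 to 1380, 957 to 1391, 840 to 1469 and 866 to 1270 normalized counts in DEN/HFD MCOPPB, DEN/HFD saline, chow MCOPPB and chow saline livers, also with overlap of all groups. All coordinates are on GRCm38 from the GENCODE M21 annotation.

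In DEN/HFD livers, none of the 10 genes passed the test between MCOPPB and saline. limma called 0 of the 10, where 0.0259% of all genes tested were called. An unadjusted p under 0.05 was found for 0 of the 10 and for 4.74% of all genes tested. No gene was separated between the groups, against 6.96% of all genes tested. The 2 largest differences were those of Cyp7a1 (-0.68 ± 0.50, SE, 95% interval -1.74 to 0.38) and Cyp8b1 (0.53 ± 0.48, -0.48 to 1.53), both with a limma adjusted p of 1.00. Cyp7b1 differed by -0.44 ± 0.35 and Acox2 by -0.35 ± 0.24, and the differences of Cyp27a1, Hsd3b7, Slc27a5, Baat, Nr0b2 and Nr1h4 lay between -0.19 and 0.09. The median of the 10 was -0.16, against -0.00 over all genes, with 3 of 10 positive. Without the library labelled DEN/HFD saline 4, the difference of Cyp7a1 was -0.26 ± 0.47, that of Cyp27a1 -0.03 ± 0.18 and that of Cyp7b1 -0.00 ± 0.24, and limma called 0 genes in the whole table.

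In chow livers, Cyp7a1 had the largest difference between MCOPPB and saline of the 10 genes, at 1.60 ± 0.48 (log2, SE, 95% interval 0.59 to 2.61). This did not pass the test (limma adjusted p = 0.246, unadjusted p = 0.00394), although the 5 MCOPPB and 3 saline livers were separated. Slc27a5 was also separated, with a difference of 0.43 ± 0.20 (95% interval 0.00 to 0.86, limma adjusted p = 0.549). limma called 0 of the 10 genes, where 0.32% of all genes tested were called. An unadjusted p under 0.05 was found for 2 of the 10 and for 9.06% of all genes tested. Separation toward higher values in MCOPPB livers was seen in 2 of the 10 genes and in 2.64% of all genes tested. That share counts only the direction of the members, and the share over both directions, not given here, cannot be smaller. The members of the alternative pathway had negative differences, -0.32 ± 0.18 for Cyp27a1 and -0.42 ± 0.34 for Cyp7b1. The remaining differences were 0.34 ± 0.45 for Cyp8b1, 0.22 ± 0.23 for Nr0b2, 0.10 ± 0.22 for Nr1h4, 0.07 ± 0.23 for Acox2, -0.13 ± 0.18 for Baat and -0.24 ± 0.27 for Hsd3b7. The median of the 10 was 0.09, against 0.00 over all genes.

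Other features moved with treatment in the chow mice. All 16 female-biased liver genes tested had positive differences (9 called higher), and all 17 male-biased ones had negative differences (8 called lower). The direction was shared by MCOPPB in DEN/HFD mice. There 16 of the 16 female-biased genes were positive (median 0.56, 1 called) and 16 of the 17 male-biased ones negative (median -1.24, 0 called). Without the library labelled DEN/HFD saline 4 these were 15 and 16, with 0 called in both lists. The summed level of the 6 Kupffer cell markers was 1236 to 2329 normalized counts in chow MCOPPB and 605 to 886 in chow saline livers, with no marker at 0 in every library. For the 6 markers of sinusoidal endothelium the sums were 1132 to 1514 in chow MCOPPB and 904 to 1087 in chow saline livers. In this comparison limma called 0 of the 6 Kupffer cell markers and 0 of the 6 endothelial ones. The first of the 2 RNA integrity numbers in the labels averaged 9.96 ± 0.0548 (SD, n = 5) with MCOPPB and 9.23 ± 0.404 (n = 3) with saline. With that number as a covariate the Cyp7a1 difference was 1.34 (limma adjusted p = 0.408). The part of these features in the Cyp7a1 and Slc27a5 differences was not tested.

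**Figure D2:**
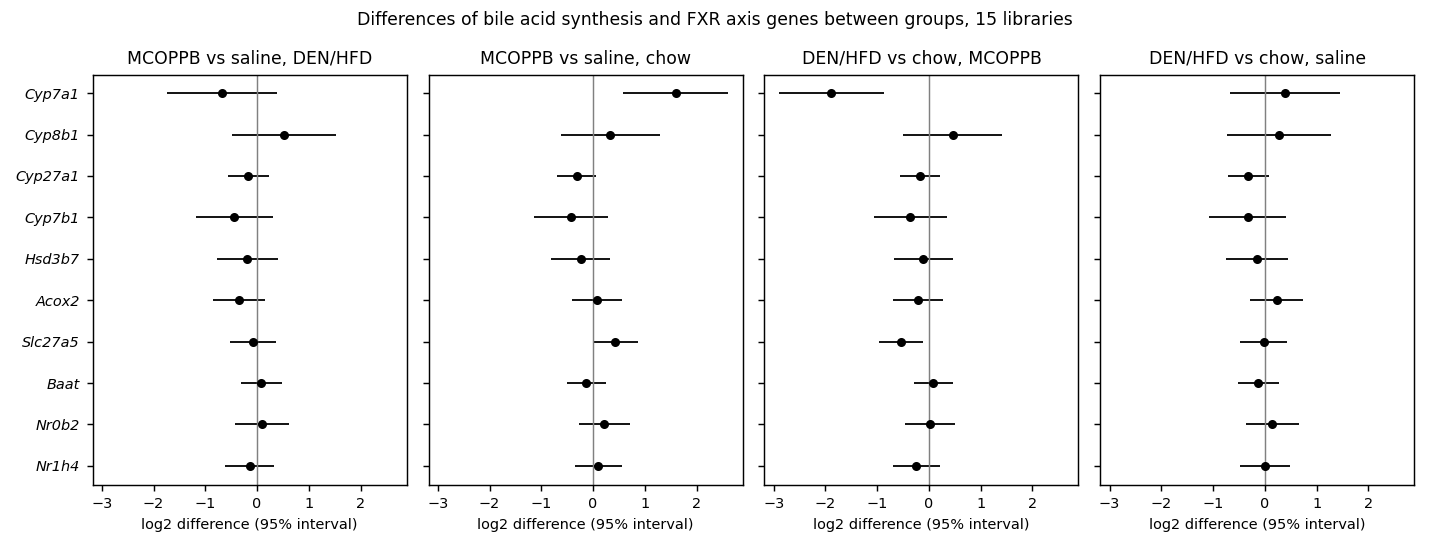
Log2 differences (horizontal axes) of the 10 genes in 4 comparisons, from limma over 15 libraries; points are estimates and bars 95% intervals. Intervals that leave out 0 are those of Cyp7a1 and Slc27a5 for MCOPPB in chow mice (1.60 and 0.43) and for DEN/HFD in MCOPPB mice (-1.89 and -0.54).

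Among MCOPPB mice, DEN/HFD livers had less Cyp7a1 mRNA than chow livers in every pair of animals, with a log2 difference of -1.89 ± 0.48 (SE, 95% interval -2.90 to -0.88). The limma adjusted p was 0.0869, so Cyp7a1 missed the threshold of 0.05. It passed when the library labelled DEN/HFD saline 4 was left out of the shared estimate of spread (limma adjusted p = 0.0373, with 1.36% of all genes tested called), when the 8 MCOPPB libraries were fitted alone (0.0429) and with array weights (0.0341). The first RNA integrity number averaged 9.00 ± 0.265 (SD, n = 3) in DEN/HFD MCOPPB and 9.96 ± 0.0548 (n = 5) in chow MCOPPB samples. With it as a covariate the difference was -1.55 (limma adjusted p = 0.438). Slc27a5 was separated in the same direction, at -0.54 ± 0.20 (95% interval -0.97 to -0.11, limma adjusted p = 0.278).

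In that comparison limma called 0 of the 10 genes, where 0.571% of all genes tested were called. Of the 10, 2 had an unadjusted p under 0.05, as did 12.3% of all genes tested. Separation toward lower values in DEN/HFD livers was seen in 2 of the 10 genes and in 4.68% of all genes tested. Here as well the share counts only the direction of the members, and the share over both directions cannot be smaller. Cyp8b1 had a difference of 0.46 ± 0.45, opposite in sign to that of Cyp7a1, Cyp7b1 one of -0.36 ± 0.34, Nr1h4 one of -0.25 ± 0.22, Acox2 one of -0.21 ± 0.23, Cyp27a1 one of -0.17 ± 0.18 and Hsd3b7 one of -0.11 ± 0.27. Baat (0.08 ± 0.18) and Nr0b2 (0.02 ± 0.23) had intervals of -0.30 to 0.46 and -0.47 to 0.51. The median of the 10 was -0.19, against -0.01 over all genes. This comparison and that of MCOPPB with saline on chow share the 5 chow MCOPPB livers.

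Here too other features moved with the groups. Of 16 female-biased genes tested, 13 had negative differences and 8 were called lower. The summed level of 9 cholangiocyte markers was 1053 to 1377 normalized counts in DEN/HFD MCOPPB and 793 to 1001 in chow MCOPPB livers, and 0 of the 3 markers tested were called. Most of that sum came from Anxa4 (mean 699 in DEN/HFD MCOPPB and 581 in chow MCOPPB livers) and Spp1 (476 and 231 in the same groups), genes that other cells express too. Means of Krt19 (7.18 and 13.0), Epcam (8.19 and 11.5), Cldn7 (1.19 and 6.03) and Cftr (0.492 and 1.15) were lower in DEN/HFD MCOPPB livers, and all 4 lay under the filter on low values. Those of Krt7 (7.27 and 3.96), Muc1 (6.30 and 1.47) and Sox9 (31.3 and 23.0) were higher there, and of these Krt7 and Muc1 also lay under the filter. For 5 markers of ileal epithelium the sums were 2756 to 3133 in DEN/HFD MCOPPB and 1176 to 1556 in chow MCOPPB livers, with Fabp6 and Fgf15 at 0 in every library. Fabp2, a fatty acid binding protein, made up most of these sums (mean 2510 in DEN/HFD MCOPPB and 1029 in chow MCOPPB livers) and was the 1 of 2 tested markers called, higher (1.25 ± 0.24, limma adjusted p = 0.0257). Slc10a2 averaged 456 in DEN/HFD MCOPPB and 290 in chow MCOPPB livers, and Vil1 2.05 and 5.64. The part of these features in the Cyp7a1 and Slc27a5 differences was not tested.

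In saline mice, none of the 10 genes passed the test between DEN/HFD and chow. limma called 0 of them, where 0.0519% of all genes tested were called, and 0 had an unadjusted p under 0.05, where 11% of all genes had one. None was separated, against 9.09% of all genes tested, and the median of the 10 was -0.01, against 0.01 over all genes. Cyp7a1 differed by 0.39 ± 0.50, Cyp7b1 by -0.33 ± 0.35, Cyp27a1 by -0.32 ± 0.19 (limma adjusted p = 0.566), Cyp8b1 by 0.27 ± 0.48 and Acox2 by 0.22 ± 0.24. Hsd3b7 differed by -0.16 ± 0.28, Nr0b2 by 0.14 ± 0.24, Baat by -0.13 ± 0.19, Slc27a5 by -0.02 ± 0.21 and Nr1h4 by 0.00 ± 0.23.

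Both enzymes of the alternative pathway had negative differences, of a larger size once the library labelled DEN/HFD saline 4 was left out. Cyp7b1 then averaged 506 ± 62.5 normalized counts in the 3 remaining DEN/HFD saline livers and 930 ± 158 in the 3 chow saline livers (SD). The log2 difference was -0.77 ± 0.24 (95% interval -1.28 to -0.27, limma adjusted p = 0.172). Cyp27a1 averaged 2013 ± 210 and 2811 ± 291 normalized counts in those groups, a difference of -0.47 ± 0.18 (-0.84 to -0.09, limma adjusted p = 0.278). Both genes were then separated toward lower values, as were 7.68% of all genes tested, a share that counts this direction only. Neither passed the test, where 0.45% did. The Cyp7a1 difference was -0.03 ± 0.47 without that library.

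**Figure D3:**
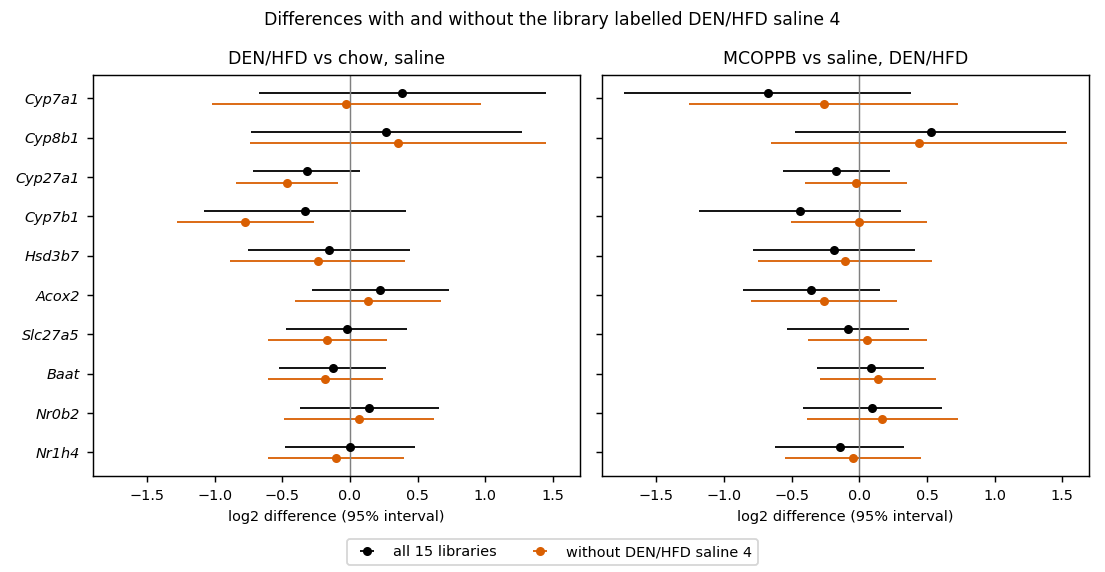
Log2 differences (horizontal axes) with 95% intervals for DEN/HFD against chow in saline mice (left) and for MCOPPB against saline in DEN/HFD mice (right). Black points are from all 15 libraries and orange points from the 14 without the one labelled DEN/HFD saline 4; without it, the Cyp7b1 difference moved to -0.77 in the left panel and to -0.00 in the right.

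The difference between the MCOPPB effects of both diets was largest for Cyp7a1, at -2.28 ± 0.70 (log2, DEN/HFD effect minus chow effect, 95% interval -3.74 to -0.81). It did not pass the test (limma adjusted p = 0.577, unadjusted p = 0.00442), and was -1.86 ± 0.63 without the library labelled DEN/HFD saline 4. limma called 0 of the 10 genes, where 0.0692% of all genes tested were called. Cyp7a1 was the 1 of the 10 with an unadjusted p under 0.05, which 5.9% of all genes tested had. Slc27a5 followed at -0.52 ± 0.29 and Acox2 at -0.43 ± 0.33, and the other 7 lay between -0.25 and 0.21.

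With diet as an additive term, the common MCOPPB difference was 0.51 ± 0.43 for Cyp7a1, 0.43 ± 0.32 for Cyp8b1, -0.43 ± 0.24 for Cyp7b1 and -0.25 ± 0.13 for Cyp27a1. limma called 0 of the 10 genes, where 0.372% of all genes tested were called, and 0 had an unadjusted p under 0.05, where 6.5% of all genes had one. Without the library labelled DEN/HFD saline 4 the difference was 0.77 ± 0.38 for Cyp7a1 and -0.23 ± 0.16 for Cyp7b1, and with the first RNA integrity number as a covariate that of Cyp7a1 was -0.078, with its sign turned. With treatment as an additive term, the common DEN/HFD difference was -0.80 ± 0.43 for Cyp7a1, -0.35 ± 0.24 for Cyp7b1, -0.29 ± 0.16 for Slc27a5, -0.24 ± 0.13 for Cyp27a1 and 0.37 ± 0.32 for Cyp8b1. Here too limma called 0 of the 10, where 1.32% of all genes tested were called, and 0 had an unadjusted p under 0.05, where 16.7% of all genes had one. Without the library labelled DEN/HFD saline 4, the common DEN/HFD difference was -0.54 ± 0.16 for Cyp7b1 (limma adjusted p = 0.0724) and -1.06 ± 0.38 for Cyp7a1 (limma adjusted p = 0.126), with 3.98% of all genes called. With the first RNA integrity number as a covariate, the Cyp7a1 difference over all 15 libraries turned sign, to 0.092 (limma adjusted p = 0.978).

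Within groups, deviations of Cyp7a1 and Nr0b2 were positively correlated. After subtracting each group's mean, deviations of both genes over 15 libraries gave Pearson's r = 0.705 and Spearman's rho = 0.843. Adjusted over the 4 pairs of genes examined, the permutation p was 0.013 for r and 0.00088 for rho (two-sided, 100000 draws, raw p = 0.00325 and 0.00022). The draws mixed deviations of all groups and did not allow for the means subtracted. Permutation p values of deviations therefore tend to be too small, by an amount that was not tested. Without the 2 libraries whose Cyp7a1 deviations lay farthest from their median, r was 0.684 over 13 libraries (permutation adjusted p = 0.0429). The group means subtracted there were still those of all 15 libraries. Without the library labelled DEN/HFD saline 4, r was 0.708 and rho 0.824 over 14 libraries (permutation adjusted p = 0.0181 and 0.00196). On the values as deposited, without subtracting group means, r was 0.534 (permutation adjusted p = 0.163). Of the 11567 other genes, 42, or 0.363%, had a higher r with Cyp7a1, and 527 had an r over 0.5.

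Read by animal, the gene pair ran together in some animals and apart in others. In DEN/HFD MCOPPB livers, animal 1 had the most Cyp7a1 (382) and the most Nr0b2 (318 normalized counts), and animal 2 the least of both (83.2 and 190). In DEN/HFD saline livers, animal 4 had the most of both (869 and 274) and animal 1 the least (114 and 172), while animals 2 and 3 were in opposite order, with 232 and 375 for Cyp7a1 and 260 and 196 for Nr0b2. In chow saline livers, animal 1 had the least of both (105 and 127). In chow MCOPPB livers, animals 3 and 4 had the most of both, with 1388 and 1648 for Cyp7a1 and 315 and 299 for Nr0b2. Animal 2 of that group had the third highest Cyp7a1 of its 5 (587) and the lowest Nr0b2 of all 15 libraries (121).

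The other 3 pairs gave r = 0.171 for Cyp7a1 with Cyp8b1, 0.486 for Cyp7a1 with Cyp7b1 and -0.219 for Cyp8b1 with Nr0b2. Their permutation adjusted p values were 0.55, 0.121 and 0.55, and the rho values 0.129, 0.325 and -0.0464. The Cyp8b1 and Nr0b2 value turned sign, to 0.334, without the 2 libraries whose Cyp8b1 deviations lay farthest from their median. The r of Cyp7a1 with Cyp7b1 was 0.0588 without the library labelled DEN/HFD saline 4.

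**Figure D4:**
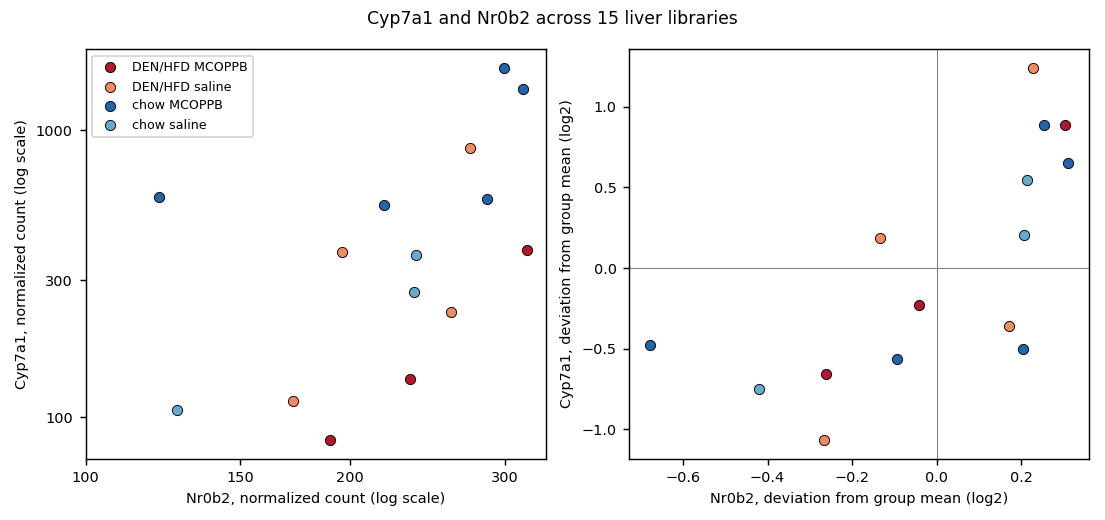
Cyp7a1 against Nr0b2 in 15 liver libraries, coloured by group: normalized counts on log axes (left) and deviations from the group mean in log2 units (right). The deviations run together (r = 0.705), and all 5 chow MCOPPB livers lie above 547 normalized counts of Cyp7a1 in the left panel.

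The genes whose deposited values followed each variable member most closely over the 15 libraries were found by Pearson's r, with group differences left in. For Cyp7a1 they included Tpbgl (r = 0.935) and the sialyltransferase St3gal4 (0.881). For Cyp8b1 they were Kdsr (0.877), an enzyme of sphingolipid synthesis, Btbd3 (0.756) and Sco1 (0.755). For Cyp7b1 they were Serpina1c (0.875), the cytokine receptor Lifr (0.850) and Cyp4f14 (0.842). These 3 values include the library labelled DEN/HFD saline 4, the highest in Cyp7b1, and were not computed without it. For Nr0b2 they were Ppp1r3b (0.823), a glycogen-targeting phosphatase subunit, Zfp335 (0.770) and the co-chaperone Bag3 (0.748). None of those named was a member of the 10.

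Clock genes were read because Cyp7a1 is rhythmic and the time of tissue collection was not given in the sources used here. The summed level of 20 PAR bZIP and clock genes was 3069 to 4457 normalized counts in DEN/HFD MCOPPB livers, 5838 to 8424 in DEN/HFD saline, 5676 to 10050 in chow MCOPPB and 6315 to 12150 in chow saline livers. In this sum, which leans on strongly expressed genes such as Dbp (means 521 in DEN/HFD MCOPPB and 1683 in chow MCOPPB livers), the DEN/HFD MCOPPB livers lay below all others. Not every gene was lower there. Means of Arntl (54.8 and 9.49), Npas2 (24.8 and 1.27), Nfil3 (155 and 106), Clock (147 and 111) and Nr1d1 (560 and 406) were higher in DEN/HFD MCOPPB than in chow MCOPPB livers. For DEN/HFD against chow in MCOPPB mice, the pairwise comparison with the largest Cyp7a1 difference, 15 of 19 tested clock genes had negative differences and 4 positive ones. The median was -0.65, and limma called 4 of the 19 lower and none higher.

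Among them were Usp2, a rhythmic deubiquitinase (-2.25 ± 0.28, limma adjusted p = 0.000529), the PAR bZIP factor Tef (-1.43 ± 0.26) and the clock gene Per3 (-1.77 ± 0.33). Dbp, the PAR bZIP factor known to act on Cyp7a1, had 494, 313 and 756 normalized counts in DEN/HFD MCOPPB livers and 1914, 1800, 1713 and 1827 in DEN/HFD saline livers. The Dbp groups did not overlap, and the log2 difference of -1.71 ± 0.46 did not pass the test (limma adjusted p = 0.485). For MCOPPB against saline in DEN/HFD mice, limma called 1 of the 19 clock genes, Usp2 (-1.82 ± 0.29, adjusted p = 0.0312), with a list median of -0.44; on chow it called 0, with a median of 0.07. Leaving out the library labelled DEN/HFD saline 4 kept the same 4 genes called in MCOPPB mice, but called 0 genes for MCOPPB in DEN/HFD mice. The part of the clock genes in the Cyp7a1 differences was not tested.

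Bile acid transporters around the pathway were read from a list of 15 genes, 14 of them tested. With MCOPPB on chow, limma called 1 higher and 1 lower. Slco1a4, a sinusoidal uptake carrier, rose to 922, 1134, 784, 758 and 693 normalized counts in chow MCOPPB livers, against 182, 248 and 297 in chow saline livers (1.53 ± 0.20, limma adjusted p = 0.000433). Slco1a1, a male-biased uptake carrier, fell to 445, 531, 60.0, 141 and 8.25 normalized counts in chow MCOPPB livers, against 2842, 2094 and 2590 in chow saline livers (-3.47 ± 0.69, limma adjusted p = 0.0337). The groups of both genes were fully separated. For MCOPPB in DEN/HFD mice and for DEN/HFD in saline mice limma called 0 of the 14, and for DEN/HFD in MCOPPB mice it called Slco1a4 lower (-1.40 ± 0.20). It also called Slc10a1 lower there without the library labelled DEN/HFD saline 4 (-0.99 ± 0.22, adjusted p = 0.0386).

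Over both treatments, DEN/HFD livers had less Slc10a1, the main sodium-dependent bile acid importer (-0.93 ± 0.17, limma adjusted p = 0.0177). It had 3945, 2569 and 2354 normalized counts in DEN/HFD MCOPPB livers and 2508, 3050, 2497 and 4528 in DEN/HFD saline livers. It had 4477, 8989, 5465, 5515 and 5455 in chow MCOPPB livers and 5517, 5518 and 5894 in chow saline livers. DEN/HFD livers lay below chow livers apart from the library labelled DEN/HFD saline 4, which lay above 1 chow MCOPPB liver. Abcg5, part of the canalicular sterol exporter, was lower with DEN/HFD (-0.70 ± 0.15, limma adjusted p = 0.0325) and with MCOPPB (-0.83 ± 0.15, limma adjusted p = 0.0176) in the additive fits. These were the 2 transporters called for DEN/HFD, and Slco1a1 and Abcg5 the 2 called for MCOPPB, all lower. Without the library labelled DEN/HFD saline 4 the DEN/HFD fit called 4, with Abcb4 and Ephx1 added as higher.

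A further list of 17 genes, most of them bile acid and sterol enzymes, had 14 that were tested. The 1 called over all 15 libraries was Dio1, a deiodinase of thyroid hormone and not a bile acid enzyme. It was higher with DEN/HFD in MCOPPB mice (1.62 ± 0.23, limma adjusted p = 0.00233) and in the additive fit (1.42 ± 0.17, limma adjusted p = 0.000821). It had 1188, 1150 and 1302 normalized counts in DEN/HFD MCOPPB livers and 406, 352, 520, 324 and 174 in chow MCOPPB livers, without overlap. The additive DEN/HFD fit also called the sulfotransferase Sult2a8 lower (-1.05 ± 0.27) once the library labelled DEN/HFD saline 4 was left out. Of 20 regulators of the pathway, 19 were tested and limma called 0 in each of the 7 comparisons. These include Nr5a2, Hnf4a, Fgfr4 and Klb, the last 2 being the hepatic receptor of Fgf15. Their medians were 0.13 for MCOPPB on chow and -0.21 for DEN/HFD in MCOPPB mice. Without the library labelled DEN/HFD saline 4, the additive DEN/HFD fit called Mafg (-0.58 ± 0.16), a repressor in this pathway, and the xenobiotic receptor gene Nr1i3 (-0.91 ± 0.25) lower.

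Of 22 further FXR targets 18 were tested. Ugt2b1, a glucuronosyltransferase, fell with MCOPPB on chow, to 1694, 2394, 1697, 1758 and 1709 normalized counts in chow MCOPPB livers, against 4962, 3924 and 4212 in chow saline livers (-1.21 ± 0.20, limma adjusted p = 0.00856). It was the 1 target called there and the 1 called for MCOPPB in the additive fit (-0.96 ± 0.15). For DEN/HFD in MCOPPB mice limma called Insig2, a brake on sterol synthesis, higher (1.84 ± 0.36, adjusted p = 0.0253) and the carboxylesterase Ces1d lower (-1.30 ± 0.23, adjusted p = 0.0176). In the other 2 pairwise comparisons and in the additive DEN/HFD fit 0 of the 18 were called. Once the library labelled DEN/HFD saline 4 was left out, the additive DEN/HFD fit called Apoc2 (1.01 ± 0.20), Insig2 (1.21 ± 0.28) and Abcb4 (0.66 ± 0.16) higher and Ces1d (-0.80 ± 0.20) lower, and Ces1d was called higher with MCOPPB on chow (1.01 ± 0.21, limma adjusted p = 0.0460). Fgf15 and Fabp6, FXR targets of the ileum, were listed at 0 in all 15 livers. Medians of the 18 lay between -0.03 and 0.07 in the 4 pairwise comparisons. Of 10 targets of LXR, the oxysterol receptor, all 10 were tested and Abcg5 was the 1 called, in both additive fits, with 0 called in the 4 pairwise comparisons.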

How the data were processed

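RNA of 15 mouse livers was read as single reads of 75 nt from directional libraries made with 250 ng of RNA, per the labels' protocols. The submitters' processing notes name Trimmomatic, STAR 2.7.0e, HTSeq and DESeq2, with GRCm38 (mm10) as the build. What each tool did is not given in the sources used here. The deposited values are log2 expression levels with the variance stabilised by the authors, for 54281 Ensembl genes. Their lowest value, 5.49, stands for 0 reads. The scale shrinks differences of weakly expressed genes.

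The transformation was inverted to normalized counts, which give the levels. Below 20 reads, whole numbers (within 0.01 read) made up 15.3% to 45.4% of the inverted values of a library, so reads were not recovered, no count test was run and no counting interval is given. Depth is an estimate from the value of 1 read. GENCODE M21 gave names and positions for 54107 identifiers.

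Tests were run on the 11568 genes that exceeded the lowest value by 1 or more (log2) in 3 or more libraries. limma 3.58.1 in R 4.3.3 fitted 4 group means over 15 libraries, with a mean-variance trend (degrees of freedom: 11 residual, median prior 6.34). Two-sided p values were adjusted over the 11568 genes (Benjamini-Hochberg), and called means an adjusted p under 0.05. Common effects came from additive models. Errors of differences are SE and errors of levels SD. Groups are called separated where no values overlap. Correlations used permutation of libraries across groups, with no allowance for the group means subtracted. The limma fit was tested on simulated data with independent normal noise and no outlying library, so that test does not cover libraries that stand apart from their group.

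The 10 genes and the lists around them were chosen with earlier results of these data known. All 10 are named in every comparison. Of each list, every called gene and the 3 with the smallest p could be named. A result that these rules would name is not reported here. Alternatives changed the filter, normalization, scale, libraries fitted, weights, covariates and replicate block, and left out each library. Titles number animals separately within groups.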

Additional observations from a re-analysis of the deposited data

Results flagged for a closer look

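Of 20 sets of values (10 genes in each of the groups of 4 and 5 libraries), 2 held a value far from the rest of its group. Chance alone gives about 1 in 20. Cyp7b1 was at 1909 normalized counts in the library labelled DEN/HFD saline 4, the highest of 4, with the other 3 at 437 to 558. Baat was at 1454 normalized counts in chow MCOPPB 5, the lowest of 5, with the other 4 at 1839 to 1900.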

How the results depend on the processing

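None of the 10 genes passed the test in 6 of the 7 comparisons under any of the 9 other settings and 15 left-out libraries that were run. For DEN/HFD against chow in MCOPPB mice the count of called members was 1 in place of 0, Cyp7a1 each time, with only the groups compared and with array weights, and ranged from 0 to 1 over the left-out libraries. It was 1 without the library labelled DEN/HFD saline 4. Over the whole table that comparison called 66 genes, and 0 to 285 under other settings. The numbers called were 37 (15 to 39) for MCOPPB on chow, 3 (0 to 8) for MCOPPB in DEN/HFD mice, 6 (1 to 6) for DEN/HFD in saline mice, 8 (2 to 10) for the difference of the MCOPPB effects, 43 (3 to 42) for the additive MCOPPB effect and 153 (0 to 392) for the additive DEN/HFD effect. Leaving out 1 library gave 13 to 50, 0 to 6, 1 to 52, 2 to 12, 25 to 42 and 6 to 460 in that order, and 18 to 157 for DEN/HFD in MCOPPB mice.

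With the replicate number as a block (replicate block), 0 members were called in each of the 7 comparisons, and the Cyp7a1 difference was 1.41 for MCOPPB on chow and -1.70 for DEN/HFD in MCOPPB mice. The numbers were not taken as pairs: of 19 pairs of libraries sharing a number, 5 had residuals correlated above 0.1, with a mean r of -0.0273, against 17 of 64 other pairs with a mean of 0.00838.

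Of 600 differences under other settings, 24 changed sign, all of them uncalled, and the cause was not tested. With the first RIN as a covariate these were Nr0b2 (-0.054) for MCOPPB on chow, and Hsd3b7 (-0.072) and Nr0b2 (0.093) for the difference of the MCOPPB effects, and Cyp7a1 (-0.078) for the additive MCOPPB effect, and Cyp7a1 (0.092), Acox2 (0.079) and Nr1h4 (0.0099) for the additive DEN/HFD effect. With the second RIN these were Cyp27a1 (0.010) and Baat (-0.012) for MCOPPB in DEN/HFD mice, and Nr1h4 (0.077) for the additive MCOPPB effect, and Acox2 (0.0092) for the additive DEN/HFD effect. With array weights these were Cyp7b1 (0.020) and Hsd3b7 (-0.085) for the difference of the MCOPPB effects, and Baat (0.045) for the additive MCOPPB effect, and Baat (0.015) for the additive DEN/HFD effect. With quantile normalization these were Nr1h4 (-0.031) for DEN/HFD in saline mice, and Baat (0.025) for the additive DEN/HFD effect. With the replicate block these were Nr1h4 (-0.0055) for MCOPPB on chow, and Nr1h4 (-0.098) for DEN/HFD in saline mice, and Cyp8b1 (-0.069), Cyp7b1 (0.19), Hsd3b7 (-0.19) and Nr0b2 (0.0085) for the difference of the MCOPPB effects, and Baat (0.012) for the additive MCOPPB effect.

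Leaving out 1 library changed the sign of 23 of 70 differences, none of them called. For MCOPPB on chow the ranges were -0.41 to 0.038 for Hsd3b7, -0.12 to 0.27 for Acox2 and -0.062 to 0.22 for Nr1h4. For MCOPPB in DEN/HFD mice the ranges were -0.18 to 0.060 for Slc27a5, -0.015 to 0.24 for Baat and -0.057 to 0.23 for Nr0b2. For DEN/HFD in saline mice the ranges were -0.026 to 0.74 for Cyp7a1, -0.33 to 0.12 for Hsd3b7, -0.17 to 0.069 for Slc27a5, -0.068 to 0.25 for Nr0b2 and -0.16 to 0.092 for Nr1h4. For DEN/HFD in MCOPPB mice the ranges were -0.31 to 0.037 for Hsd3b7, -0.016 to 0.24 for Baat and -0.15 to 0.15 for Nr0b2. For the difference of the MCOPPB effects the ranges were -0.20 to 0.57 for Cyp8b1, -0.23 to 0.42 for Cyp7b1, -0.22 to 0.22 for Hsd3b7 and -0.29 to 0.089 for Nr0b2. For the additive MCOPPB effect the ranges were -0.081 to 0.026 for Baat and -0.11 to 0.047 for Nr1h4. For the additive DEN/HFD effect the ranges were -0.11 to 0.093 for Acox2, -0.077 to 0.040 for Baat and -0.016 to 0.15 for Nr0b2.

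The correlation of Cyp7a1 with Nr0b2 was 0.534 without subtracting group means, and no longer passed the threshold. That of Cyp8b1 with Nr0b2 was 0.334 without the 2 libraries whose Cyp8b1 deviations lay farthest from their median. The added fits without the library labelled DEN/HFD saline 4 for gene lists and correlations were chosen after seeing the data. Groups of 3 to 5 livers limit all comparisons: for Cyp7a1 and MCOPPB on chow, the 95% interval ran from 0.59 to 2.61 on the log2 scale.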
